A study of Mus musculus with 24 samples.

Results

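Testes of NSun2 knock-out (KO) mice at 15 days were compared with wild-type (WT) testes of the same age across all probes of a mouse Illumina expression beadchip, which reads labelled RNA through probes on beads in a single colour. The members are the 12 arrays, of the 24 in the series, whose description starts with KO15 or WT15, with 6 KO and 6 WT arrays lettered A to F in each group. Both groups come from the F1 generation of CBA and C57BL/6J. The KO animals derive from 2 lines, one from the gene-trap ES cell line D014D11 and one carrying the Nsun2tm1a allele, with no record of the line each KO sample stems from. Whether every array had its own animal is not recorded either, and the p-values speak only of the spread among these arrays, part of which may be technical. The other 12 arrays, KO and WT testes at 49 days, are used here only as a second readout of the genes called at 15 days.

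NSUN2 is an RNA methyltransferase that places a methyl group on carbon 5 of cytosine, mainly in transfer RNA. The postnatal mouse testis holds Sertoli cells, which nurse the germ cells inside the tubules, somatic cells between the tubules, and germ cells that advance through mitosis and meiosis in a synchronous first wave. At about this age the leading germ cells of that wave are in the pachytene stage of meiosis, when homologous chromosomes are fully paired, when transcripts for the later sperm tail and acrosome begin to build up, and when the X and Y chromosomes are silenced.

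Levels are background-corrected, quantile-normalized log2 intensities, a gene is read by its brightest probe, and a gene was called when its limma p-value, adjusted over all 45278 probes, was under 0.05. The background of an array was set by its dim control rows, and a probe had to be brighter than 99% of them to count as above it. Nsun2 itself lay between 4.89 and 5.27 (median 5.13) in KO testes and between 5.82 and 7.25 (median 6.62) in WT testes, and the groups did not overlap. It was above background on 0 of 6 KO and 5 of 6 WT arrays, so the fold is only a bound, at least 1.19-fold lower in KO testes (adjusted p = 0.000915). All 20 measured genes of the Sertoli list were above background on 3 or more arrays, as were 15 of 18 in the undifferentiated spermatogonia list. Between 17889 and 19144 probes were above background per array, and the median intensity ran from 223.9 to 278.7. KO arrays lay between -56.3 and -20.9 and WT arrays between 7.38 and 54.3 on principal component 1, which held 33.2% of the variance.

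Several arrays stood apart within their group. KO arrays B, C and E and WT arrays B and D carried transcripts of the epididymis, the sperm duct next to the testis: Spink8, a protease inhibitor of that duct, was at 12.37, 10.51 and 15.31 on those KO arrays and at 10.94 and 13.18 on those WT arrays, against 5.45 to 8.64 on the other KO arrays and 5.07 to 7.41 on the other WT arrays. Defb42, a defensin of the duct, was at 11.90, 9.38 and 14.04 on the same KO arrays and at 9.41 and 11.21 on the same WT arrays, and at 5.64 or lower on all others. Transcripts of late spermatids, which lie beyond this age, were high on KO array B and WT array A: Prm1, a protamine of condensed sperm chromatin, was at 12.39 and 10.17 there and at most 7.12 elsewhere. Spink8 and Defb42, with Wfdc15b, Defb28, Defb2, Defb37, Defb11, Cuzd1, Spag11a and Serpina1f, were also the 10 with the largest SD among KO arrays. KO array D was the lowest of the 12 in the lists of the synaptonemal complex, of recombination and of the piRNA pathway, where the median deviation of the members from their WT mean was -0.96, -1.12 and -1.004 on it (log2), against -0.49 to -0.25, -0.56 to -0.43 and -0.60 to -0.42 on the other KO arrays.

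A limited number of genes were much lower in KO testes, and many others differed by less in either direction. Of 45278 probes 3361 were called (7.42%), 1534 higher (3.39%) and 1827 lower (4.04%), and 9034 had an unadjusted p under 0.05. Of 19057 genes, 2014 were called (10.6%), 912 higher (4.79%) and 1102 lower in KO testes (5.78%). The falls were the larger: their median was -0.62 (log2), 258 genes fell by more than 1, 70 by more than 2 and 13 by more than 3. The rises had a median of 0.51, with 36 above 1, 2 above 2 and 0 above 3. Among the 10862 genes above background on 3 or more arrays 8.04% were higher and 9.7% lower. Over all genes the median difference was 0.01. The 6 KO values lay wholly below the 6 WT values for 805 genes (4.22%) and wholly above them for 572 (3.0%). Of the genes called, 884 of the 912 higher and 1085 of the 1102 lower had the same sign on all 4 slides, which each hold KO and WT arrays. That was so for 30.8% of all genes. The slides hold the same 12 arrays that gave the calls, so this is no separate check. Among probes that name no single gene, 191 were higher and 265 lower of 10393. Second probes of a called gene that were above background on 3 or more arrays had the gene's sign in 460 of 514 cases for higher and 529 of 605 for lower genes, and 3 and 1 of them were called the other way. Of 40 called genes chosen by the naming rule that have such a probe, 12 had none with the gene's call: Alkbh8, Cxadr, Fas, Id4, Igfbp5, Islr, Nid1, Trmt1, Ybx1, Yme1l1, Zfp367 and Zfp386. Among the calls, 26 higher and 27 lower were of genes above background on none of the 12 arrays. With scale in place of quantile normalization 60.1% of the called genes were higher, against 45.3%. Without the 5 arrays that carry epididymis transcripts, 140 genes were higher and 254 lower, in a fit of 3 KO and 4 WT arrays, and without KO array B and WT array A 537 were higher and 694 lower. Without WT array C alone, 602 genes were higher.

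**Figure D1:**
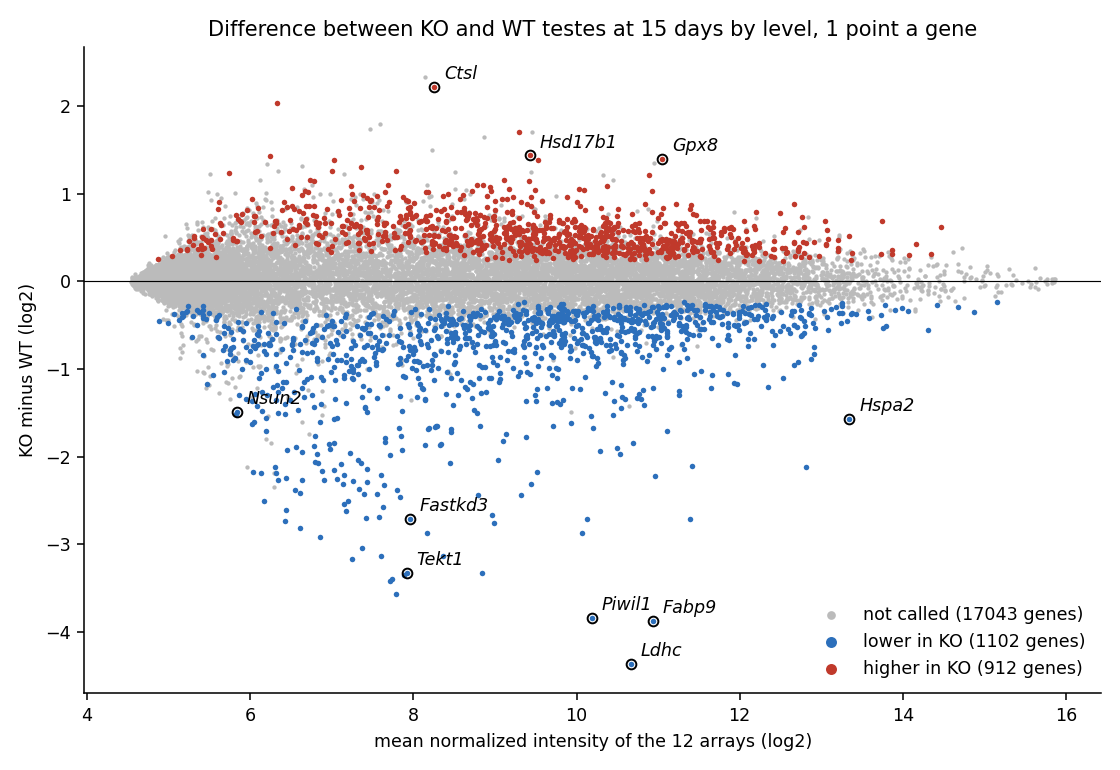
Difference between KO and WT testes at 15 days (log2, vertical axis) against the mean normalized intensity of the 12 arrays (log2, horizontal axis), 1 point a gene. The 1102 genes lower in KO reach -4.37 for Ldhc, while the highest of the 912 genes called higher is Ctsl at 2.22.

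The 3 deepest falls were of genes known from pachytene germ cells. Ldhc, the lactate dehydrogenase of sperm and their precursors, lay between 5.47 and 10.48 (median 8.96) in KO testes and between 11.65 and 14.27 (median 12.53) in WT testes. Its difference was -4.37 (SE 0.73, adjusted p = 0.00373), and it was above background on 5 of 6 KO arrays, missing on KO array D. Fabp9, a fatty acid binding protein of the sperm head, lay between 6.64 and 10.23 (median 9.61) in KO testes and between 11.97 and 14.13 (median 12.69) in WT testes, a difference of -3.88 (SE 0.60, adjusted p = 0.00248). For Piwil1, the Argonaute-family protein MIWI that binds pachytene piRNAs, KO arrays reached 7.03 to 8.70 (median 8.45) and WT arrays 11.02 to 13.40 (median 11.84), a difference of -3.85 (SE 0.40, adjusted p = 0.000591). In all 3 genes KO array D was the lowest KO array and WT arrays B and C were the highest WT arrays, and the lowest WT array still lay above every KO array. In whole testes, fewer cells of a type and less RNA per cell cannot be told apart. The next in size included Clec2m, a C-type lectin family member (-3.57), Dkkl1, an acrosomal protein related to Dickkopf (-3.42), Odf4, named for the outer dense fibres of the sperm tail (-3.40), Mdh1b, a relative of cytosolic malate dehydrogenase (-3.35), and the neighbouring Ly6-type genes Lypd10 (-3.33) and Lypd11 (-3.14). These 6 were above background on 1 to 4 of 6 KO and on all WT arrays, and in each the 2 groups did not overlap.

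**Figure D2:**
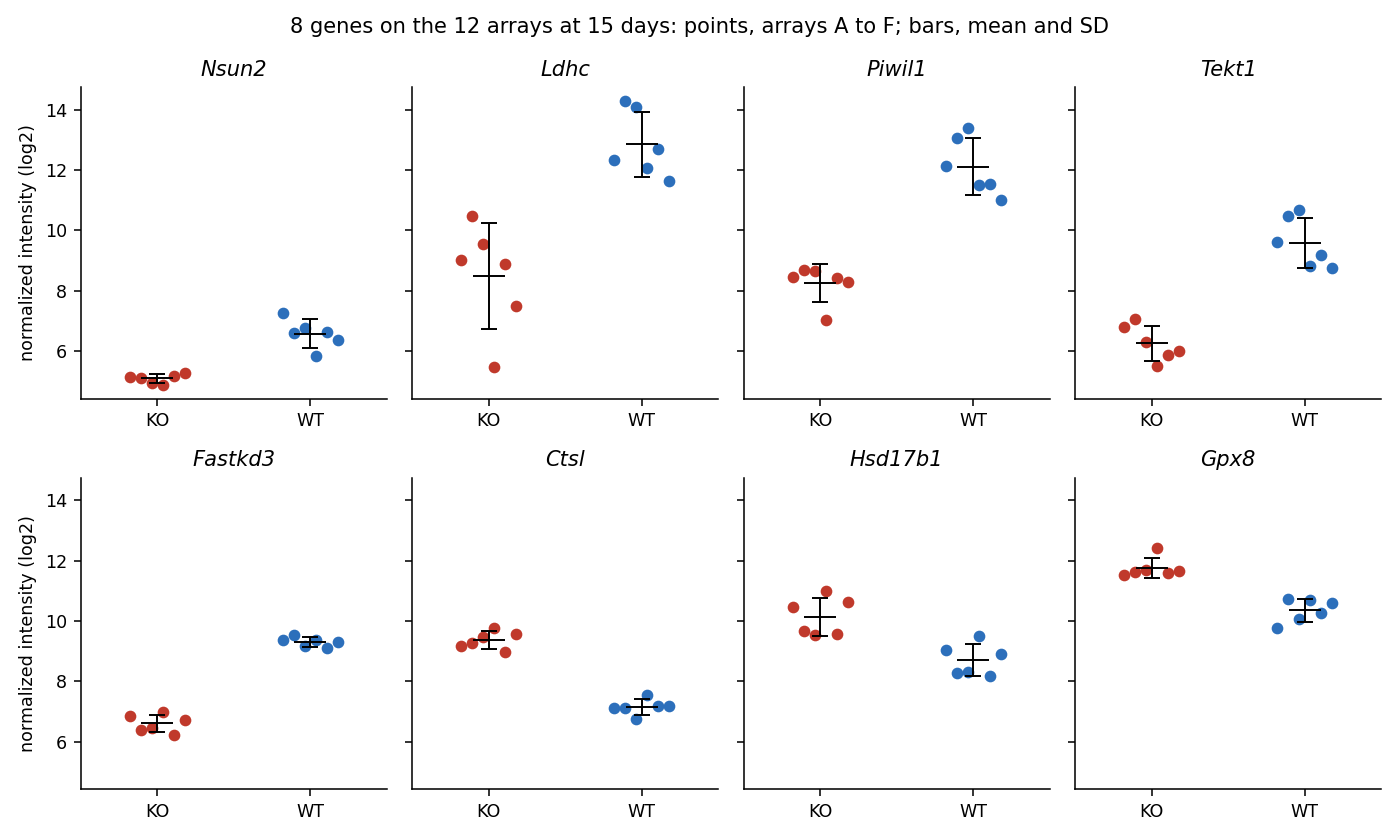
Normalized intensity (log2, vertical axis) of 8 genes on each KO and WT array at 15 days, with mean and SD (n = 6 each). Nsun2, Ldhc, Piwil1, Tekt1 and Fastkd3 are lower and Ctsl, Hsd17b1 and Gpx8 higher on every KO array than on any WT array.

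Counted by list, 14 of 26 measured genes of pachytene and late meiosis were lower and 0 higher. Of all genes 5.78% were lower, and of those above background on 3 or more arrays 9.7%. The median difference was -1.18 over the list against 0.01 over all genes. Without the 5 arrays with epididymis transcripts 8 of the 26 were lower. The summed level of the list ran from 9216 to 20585 on KO arrays and from 38829 to 108951 on WT arrays (linear normalized intensity), so the ranges did not meet. Isoforms that germ cells use for energy metabolism fell as well, 7 of 17 with a median of -0.95. Cox8c, a testis form of a cytochrome c oxidase subunit, lay between 8.74 and 10.66 (median 10.25) in KO testes and between 11.78 and 13.86 (median 12.52) in WT testes, a difference of -2.72 (SE 0.41, adjusted p = 0.00214). Each of the 7 fell without overlap between the groups, as did 68.1% of all genes called lower.

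Genes of the cilium and the sperm tail axoneme, the ring of microtubules and dynein motors that bends the tail, were lower in many cases and higher in none. Of 32 measured, 16 were lower and 0 higher, with a median of -0.75 (log2), and 8 were lower without the 5 arrays with epididymis transcripts. Tekt1, a tektin of the filaments inside axonemal microtubules, lay between 5.51 and 7.05 (median 6.15) in KO testes and between 8.74 and 10.68 (median 9.39) in WT testes, a difference of -3.33 (SE 0.36, adjusted p = 0.000591) with 2 of 6 KO arrays above background. Zmynd10, a cytoplasmic factor that assembles dynein arms, lay between 5.47 and 6.43 (median 6.10) in KO testes and between 8.13 and 10.58 (median 8.95) in WT testes, a difference of -3.13, and Dnaic1, an intermediate chain of the outer dynein arm, lay between 5.31 and 6.77 (median 6.51) in KO testes and between 7.94 and 9.65 (median 8.65) in WT testes, a difference of -2.43. Cfap65 and Cfap206, proteins of the sperm flagellum, were above background on 0 of 6 KO and 6 of 6 WT arrays and were at least 5.69-fold and 4.47-fold lower, as was Ccdc192, a coiled-coil gene, by at least 3.95-fold on the same count of arrays. Spag6l, of the central pair of microtubules, fell by 3.04 (log2). Its other probes, dim on most arrays, differed by -1.51 and -0.26 and were not called. The KO levels of Zmynd10 lay near background, so the size of its fall is uncertain. Sorting all genes by the letters that open their symbols, among 258 such families of 10 or more genes, gave the following counts, against 5.78% lower of all genes: 7 of 14 Ift genes (intraflagellar transport) were lower, with 9 of 27 Cfap, 4 of 12 Spag, 4 of 13 Ttll (tubulin tyrosine ligase family), 8 of 34 Cep (centrosome) and 25 of 118 Ccdc genes. The Ift, Cfap, Spag, Ttll and Cep families had 0 members higher, and the Ccdc family had 5. Families with no such name ranked as high, with 5 of 13 Hspa (heat shock), 4 of 11 Lypd and 7 of 21 Stk (kinase) genes lower, and of 10 Dnah genes, which encode axonemal dynein heavy chains, 1 was lower, with a family median of 0.01. These families were singled out after their counts were seen. Ccdc192 was not past the threshold without the 5 arrays with epididymis transcripts (adjusted p = 0.0528).

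To show the DNA in front of the most reduced genes, the 250 bases before the start of transcription were taken from RefSeq (build GRCm38.p6) for the 15 genes with the largest falls, of which 12 had an entry. Both strands were searched for GTTGCCA, 1 arm of the X-box read by RFX factors, which are activators of cilium genes, for GGCAGTT, a core bound by MYB-type factors such as A-MYB of pachytene cells, and for TGACGTCA, the cAMP response element read by CREM. Printed below are 5 genes with a match, 5′ to 3′ along the gene's own strand, with the match in capitals. They need not be all the matches among the 12, since a gene left out of the printing was not counted.
Mdh1b, chr1:63730319-63730568, minus strand: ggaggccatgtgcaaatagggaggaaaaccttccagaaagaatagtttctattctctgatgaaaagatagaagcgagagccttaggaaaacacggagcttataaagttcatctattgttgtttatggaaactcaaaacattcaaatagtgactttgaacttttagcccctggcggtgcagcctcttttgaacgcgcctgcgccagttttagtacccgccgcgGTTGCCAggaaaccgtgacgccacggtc
Tekt1, chr11:72361883-72362132, minus strand: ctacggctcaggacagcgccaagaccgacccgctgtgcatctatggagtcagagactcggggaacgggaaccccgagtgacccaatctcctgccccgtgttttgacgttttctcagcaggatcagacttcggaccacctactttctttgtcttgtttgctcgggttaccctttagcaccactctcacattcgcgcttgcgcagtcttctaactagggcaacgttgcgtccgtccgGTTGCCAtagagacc
Lrrc34, chr3:30647819-30648068, minus strand: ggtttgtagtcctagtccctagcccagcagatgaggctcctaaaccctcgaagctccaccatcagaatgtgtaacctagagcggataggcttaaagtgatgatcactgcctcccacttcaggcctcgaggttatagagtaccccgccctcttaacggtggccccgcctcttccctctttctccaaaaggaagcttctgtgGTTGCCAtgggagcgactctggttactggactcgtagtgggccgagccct
Piwil1, chr5:128735996-128736245, plus strand: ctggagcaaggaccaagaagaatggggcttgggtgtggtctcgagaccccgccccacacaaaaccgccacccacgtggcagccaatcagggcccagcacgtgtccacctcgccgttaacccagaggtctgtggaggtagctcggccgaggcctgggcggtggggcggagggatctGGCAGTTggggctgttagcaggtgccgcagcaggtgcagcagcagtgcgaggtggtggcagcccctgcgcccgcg
Spag6l, chr16:16829364-16829613, minus strand: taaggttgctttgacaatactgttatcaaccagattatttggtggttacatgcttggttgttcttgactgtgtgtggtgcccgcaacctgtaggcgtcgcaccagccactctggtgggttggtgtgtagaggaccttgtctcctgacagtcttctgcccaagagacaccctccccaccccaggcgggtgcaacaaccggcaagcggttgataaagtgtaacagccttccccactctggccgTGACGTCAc
Mdh1b, Tekt1 and Lrrc34 each held 1 GTTGCCA, whose last base lay 22, 9 and 44 bases before the start. Piwil1 held 1 GGCAGTT, 69 bases before it, and Spag6l 1 TGACGTCA, 2 bases before it. No matches overlapped. GTTGCCA occurred in 3.93% of the 15207 genes with a promoter, in 6.24% of the 929 lower genes, in 8.65% of the 208 that fell by more than 1 and in 2.74% of the 730 higher genes. It was also in 8.14% of the 86 X chromosome genes called higher. GGCAGTT occurred in 3.53% of all, 3.44% of lower and 4.52% of higher genes, and TGACGTCA in 2.33%, 3.98% and 2.74%. Among genes above background on 3 or more arrays the shares were 3.83% for GTTGCCA, 3.46% for GGCAGTT and 3.01% for TGACGTCA. These shares describe letters in a window and were not tested. Rfx2, an RFX factor of the testis, was among the lower genes of the cilium list (-1.68); it was picked after its value was seen.

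Genes of meiotic chromosomes and of the piRNA pathway were lower too, by smaller medians. For comparison, 5.78% of all genes were lower, and 9.7% of those above background on 3 or more arrays. Of 17 measured genes of recombination 9 were lower and 0 higher (median -0.54), of 14 genes of the chromosome axis and synaptonemal complex 6 were lower and 0 higher (median -0.49), and of 24 genes of the piRNA pathway and chromatoid body, the RNA granule in the study's title, 11 were lower and 0 higher (median -0.51). Without the 5 arrays with epididymis transcripts these counts were 2, 1 and 2, with medians of -0.72, -0.50 and -0.55. Spo11, which cuts DNA to start recombination, lay between 8.67 and 10.59 (median 10.34) in KO testes and between 11.18 and 11.87 (median 11.50) in WT testes, a difference of -1.41 (SE 0.28, adjusted p = 0.0091). Msh4, which stabilises crossover intermediates, lay between 6.16 and 8.10 (median 7.83) in KO testes and between 8.92 and 9.63 (median 9.40) in WT testes, a difference of -1.72, and Meiob, a single-strand DNA binding protein of the repair step, differed by -1.35. On KO array D, Spo11 was at 8.67 and Msh4 at 6.16, below the other KO arrays, and the groups did not overlap. Hormad2, which marks unpaired chromosome axes, fell by 1.29, Terb2, which ties telomeres to the nuclear envelope, by 0.94, and Syce3, of the central element, by 0.92. Dmc1, Sycp3 and Hormad1, defining genes of these stages, were above background on none of the 12 arrays by their brightest probe and cannot be read here. In the piRNA group, Tdrd6, a tudor protein that builds the chromatoid body, lay between 5.39 and 7.30 (median 5.96) in KO testes and between 7.38 and 10.53 (median 8.38) in WT testes, a difference of -2.70 with 2 of 6 KO arrays above background, and Tdrd5 fell by 1.74. Piwil2, which encodes MILI, differed by -0.96 and Mov10l1, a helicase of piRNA biogenesis, by -1.16, both lower and both picked after their values were seen. Spo11, Msh4, Meiob, Hormad2, Syce3, Tdrd6, Tdrd5, Piwil2 and Mov10l1 were not past the threshold without the 5 arrays with epididymis transcripts (adjusted p = 0.0537 to 0.095). Terb2 was not past it in 1 fit to all 24 arrays (adjusted p = 0.174). Nor were Msh4, Hormad2 and Syce3 in that fit (adjusted p = 0.0597 to 0.261).

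Some transcripts that are known mostly from spermatids were already measurable in WT testes at this age and were lower in KO testes. Of 26 round spermatid genes 7 were lower and 0 higher (median -0.04), against 5.78% lower of all genes. Of the 26, 13 were above background on no array. Acr, the acrosomal protease acrosin, lay between 5.21 and 5.99 (median 5.39) in KO testes and between 6.65 and 8.85 (median 7.60) in WT testes; it was above background on 0 of 6 KO and 6 of 6 WT arrays and at least 2.71-fold lower. Crem, the transcription factor that activates spermatid genes, differed by -1.67 (SE 0.23, adjusted p = 0.00154). Of 18 elongating spermatid genes 2 were lower, Odf4 and Odf2 (-1.22), and 0 higher, with a list median of 0.07. Over all genes, 23 were above background on 0 of 6 KO and 6 of 6 WT arrays, and 4 the other way round, Wfdc17, Setbp1, Gtf2h5 and Mmp28. Besides Cfap65, Cfap206 and Acr the 23 included Catsperg2, a subunit of the sperm calcium channel CatSper (at least 3.22-fold lower), Spesp1, a protein of the equatorial segment of sperm (at least 3.26-fold), Gk2, a testis glycerol kinase (at least 2.67-fold), and Mak, a male germ cell kinase (at least 1.56-fold). These 4 were singled out after their values were seen. The summed level of the round spermatid list ran from 3073 to 6524 on KO arrays and from 8362 to 13282 on WT arrays. That of the elongating spermatid list overlapped, at 10535 to 19851 on KO and 12499 to 17546 on WT arrays. Wfdc17 and Setbp1 were not past the threshold without the 5 arrays with epididymis transcripts (adjusted p = 0.0541 to 0.0562). Crem, Odf2, Mmp28 and Mak were not past it in 1 fit to all 24 arrays (adjusted p = 0.0571 to 0.127).

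Chaperones, cell division and spermatogonial genes also held lower members. Of 23 molecular chaperones 7 were lower and 2 higher, against 5.78% lower and 4.79% higher of all genes. Hspa2, the HSP70 of meiotic cells, lay between 11.72 and 13.01 (median 12.70) in KO testes and between 13.68 and 14.69 (median 13.97) in WT testes, a difference of -1.57 (SE 0.23, adjusted p = 0.0018). Cct6b, a testis form of a chaperonin subunit, fell by 1.68 and Dnajb3 by 1.31, whereas the stress-inducible Hspa1a (0.53) and the small heat shock gene Hspb1 (0.36) were higher, with overlap between the groups. Hspa1b, the near-identical copy of Hspa1a, was lower (-1.03), so the direction of this pair is uncertain. Of 16 cell division genes Cdc20 (-0.84), Aurka (-0.70) and Kif11 (-0.68) were lower and 0 higher, and 0 of the 3 passed without the 5 arrays with epididymis transcripts. Spermatogonial genes were called at about the 10.6% of all genes: of 18 genes of undifferentiated spermatogonia Id4, an inhibitor of differentiation, (-0.80) and Pou5f1, a pluripotency factor that was above background on 0 of 6 KO and 3 of 6 WT arrays (at least 1.04-fold), were lower, and of 10 of differentiating spermatogonia only Sohlh2 was called (-0.53). In retinoic acid metabolism 3 of 21 were lower and 0 higher, beside 10.6% of all genes called, and the list median was 0.09. The 3 were Rdh11 (-0.74), Aldh1a2 (-0.57) and Cyp26a1 (-0.47). H2ax, the histone that marks DNA breaks and the sex body, was lower (-0.92, SE 0.13, adjusted p = 0.00185) and the only one called of 13 histone variants and testis histones. Outside that list H1f2, H2bc4, H2bc6, H2bc9, H2bc11 and H2bc12, singled out after their values were seen, were higher, by 0.88, 0.82, 0.72, 0.72, 0.66 and 0.46. Of the 120 genes whose symbols open with H and a digit, histones among them, 7 were higher (5.83%), near the 4.79% of all genes. Cct6b, Hspb1, Hspa1b, Cdc20, Aurka, Kif11, Id4, Pou5f1, Sohlh2, Rdh11, Aldh1a2, Cyp26a1, H1f2, H2bc4, H2bc6, H2bc9, H2bc11 and H2bc12 were not past the threshold without the 5 arrays with epididymis transcripts (adjusted p = 0.05 to 0.5). Dnajb3 and Hspa1a were not past it in 1 fit to all 24 arrays (adjusted p = 0.116 to 0.459). Nor were Rdh11, Cyp26a1, Cdc20, Aurka, Kif11, Hspb1 and Sohlh2 in that fit (adjusted p = 0.0527 to 0.493).

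Genes that modify RNA held members called in both directions. Of 10 other genes of RNA cytosine-5 methylation 1 was called, Ybx1, a reader of the mark and an RNA packaging protein, which lay between 13.88 and 14.16 (median 14.04) in KO testes and between 14.32 and 14.85 (median 14.64) in WT testes, a difference of -0.56 (SE 0.10, adjusted p = 0.00413). Its 2 other probes differed by -0.08 and 0.02 and were not called. Of 19 genes of transfer RNA modification and cleavage, Trmt10a, a guanine methyltransferase, (-0.90) and Trmt1 (-0.49) were lower and Alkbh8 (0.43) and Pus3 (0.34) higher. These shares, 1 of 10 and 4 of 19, stand beside 10.6% of all genes. Ybx1, Trmt10a, Alkbh8 and Pus3 were not past the threshold without the 5 arrays with epididymis transcripts (adjusted p = 0.0626 to 0.161). Alkbh8 and Pus3 were also not past it in 1 fit to all 24 arrays (adjusted p = 0.363 and 0.186).

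The smallest p-value of all belonged to a neighbour of Nsun2. Fastkd3, a regulator of mitochondrial RNA that lies 6 genes from Nsun2 on chromosome 13, lay between 6.21 and 6.97 (median 6.58) in KO testes and between 9.09 and 9.55 (median 9.35) in WT testes, a difference of -2.71 (SE 0.13, adjusted p = 5.89e-07). Zfp367, a zinc finger gene 67 genes away, lay between 6.23 and 6.997 (median 6.66) in KO testes and between 8.37 and 9.43 (median 9.09) in WT testes, a difference of -2.39 (SE 0.18, adjusted p = 6.92e-05). Both other probes of Zfp367, above background on all 12 arrays, differed by -0.16 and 0.17 and were not called. The spread within groups was small for Fastkd3 and this Zfp367 probe, and the KO and WT ranges were more than 1 apart. Among the measured genes that lie 1 to 25 genes from Nsun2 17.5% of 40 were called, from 26 to 50 26.7% of 30, from 51 to 100 16% of 81, from 101 to 200 9.30% of 172 and farther out on the chromosome 11.3% of 379. Cathepsin L, the largest rise, lies 63 genes from Nsun2, and Erap1, an aminopeptidase that trims antigen peptides, 35. Erap1 lay between 6.82 and 8.22 (median 7.08) in KO testes and between 4.88 and 7.16 (median 4.95) in WT testes, with a difference of 2.03 (SE 0.39, adjusted p = 0.00713), and WT array A, at 7.16, lay among the KO arrays while the other 5 WT arrays were at 4.88 to 5.05. The strain label is the same for both groups, but it does not describe the DNA next to the Nsun2 allele. The knock-out and the DNA linked to it go together in these samples and cannot be told apart. The part of the distance from Nsun2 in these differences was not tested. Erap1 was not past the threshold without the 5 arrays with epididymis transcripts (adjusted p = 0.101).

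The genes that rose included secreted proteins, receptors and growth factors. Ctsl, cathepsin L, a protease that Sertoli cells make, lay between 8.96 and 9.77 (median 9.37) in KO testes and between 6.74 and 7.54 (median 7.15) in WT testes, a difference of 2.22 (SE 0.15, adjusted p = 1.71e-05); all 6 KO arrays lay more than 1 above the highest WT array. Hsd17b1, which makes estradiol from estrone, lay between 9.54 and 11.01 (median 10.06) in KO testes and between 8.19 and 9.51 (median 8.61) in WT testes, a difference of 1.44 (SE 0.29, adjusted p = 0.0107). For Gpx8, a peroxidase of the endoplasmic reticulum, KO arrays ran 11.53 to 12.41 (median 11.63) and WT arrays 9.76 to 10.73 (median 10.44), a difference of 1.39 (SE 0.19, adjusted p = 0.0014). In this gene KO array D was the highest of all. Dpt, the matrix protein dermatopontin, rose by 1.39, Agtr1a, the angiotensin II receptor, by 1.38, Islr, an immunoglobulin and leucine-rich repeat protein of mesenchymal cells, by 1.26, Tnfrsf12a, the receptor for TWEAK, by 1.16, Cav2, caveolin 2, by 1.16, Wls, which carries WNT proteins to the cell surface, by 1.10, and Slc24a2, a sodium, calcium and potassium exchanger, by 1.10. Zfp386, a zinc finger gene, rose by 1.09. Wfdc17, a small secreted protein with a WAP domain, was above background on 6 of 6 KO and 0 of 6 WT arrays and at least 1.54-fold higher. Cxxc5, a zinc finger protein, was above background on 4 of 6 KO and 0 of 6 WT arrays and at least 1.01-fold higher. Dpt, Agtr1a, Islr and Cav2 were not past the threshold without the 5 arrays with epididymis transcripts (adjusted p = 0.0579 to 0.348). Tnfrsf12a, Wls, Slc24a2 and Cxxc5 were not past it in 1 fit to all 24 arrays (adjusted p = 0.0524 to 0.139).

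By list, 11 of 25 genes of steroid response and growth factor signalling were higher and 0 lower (median 0.38), against 4.79% higher and 5.78% lower of all genes. Of genes above background on 3 or more arrays 8.04% were higher. The lists were chosen with earlier results of these data known, so this count is no independent support. Of the 25, 2 were higher without the 5 arrays with epididymis transcripts and 7 without KO array B and WT array A, with medians of 0.47 and 0.45. The count was 6 without KO array D or WT array C, and 7 without KO array E or WT array B. The 11 were Hsd17b1, Agtr1a, Igfbp5 and Igfbp4, which bind insulin-like growth factors, Igf1 (0.92) and its receptor Igf1r, Inhba, an activin subunit, Pdgfa and its receptor Pdgfra, Tgfb2, and Gdnf, the Sertoli cell factor that sustains spermatogonial stem cells (0.44). The median deviation of the members from their WT mean was 0.24 to 0.62 on KO arrays and -0.13 to 0.08 on WT arrays, so the groups did not meet. Of 25 matrix genes 5 were higher and 0 lower (median 0.20), Dpt, Col5a2 (0.91), Nid1 (0.74), Lama2 and Eln; 0 passed without the 5 arrays with epididymis transcripts, and 3 without KO array B or D or WT array A, C or E alone. In the lysosome list Ctsl, Tpp1 (0.64), Ctsk (0.61), Gusb and Lamp2 were higher and Mcoln1, its calcium channel (-0.70), and Lamp1 (-0.30) lower, of 25. Few markers of somatic cell types were called, against 10.6% of all genes. Of 20 Sertoli genes 1 was higher, Ctsl, and of 12 endothelial genes 1, Emcn (0.36); of 13 Leydig, 12 myoid, 19 macrophage, 5 red cell and 7 epididymis genes 0 were called in either direction. Their median differences were 0.15 for Sertoli, 0.17 for Leydig, 0.13 for myoid, 0.29 for macrophage and 0.08 for endothelial genes. The summed level of the Sertoli list was 265111 to 294631 on KO arrays and 240037 to 277499 on WT arrays, and that of the macrophage list 18362 to 45644 on KO and 9513 to 27399 on WT arrays, with Ptprc and Cd163 above background on none. The part of these lists in the rises was not tested. The 2 largest differences in each list without a call were 2.34 for Fcer1g and 1.74 for Vsig4, both of macrophages, 0.64 for Ces1d and 0.60 for Hsd17b3 of Leydig cells, 0.38 for Des and 0.34 for Mylk of smooth muscle, -0.60 for Alas2 and -0.31 for Slc4a1 of red cells, and 1.64 for Spink8 and 0.58 for Lcn5 of the epididymis. Igfbp5, Igfbp4, Igf1, Igf1r, Inhba, Pdgfra, Tgfb2, Gdnf, Col5a2, Nid1, Lama2, Eln, Ctsk, Gusb, Lamp1 and Emcn were not past the threshold without the 5 arrays with epididymis transcripts (adjusted p = 0.0921 to 0.372). Pdgfa, Tpp1, Lamp2 and Mcoln1 were not past it in 1 fit to all 24 arrays (adjusted p = 0.0504 to 0.534). Nor were Nid1, Igfbp5 and Emcn in that fit (adjusted p = 0.165 to 0.547).

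**Figure D3:**
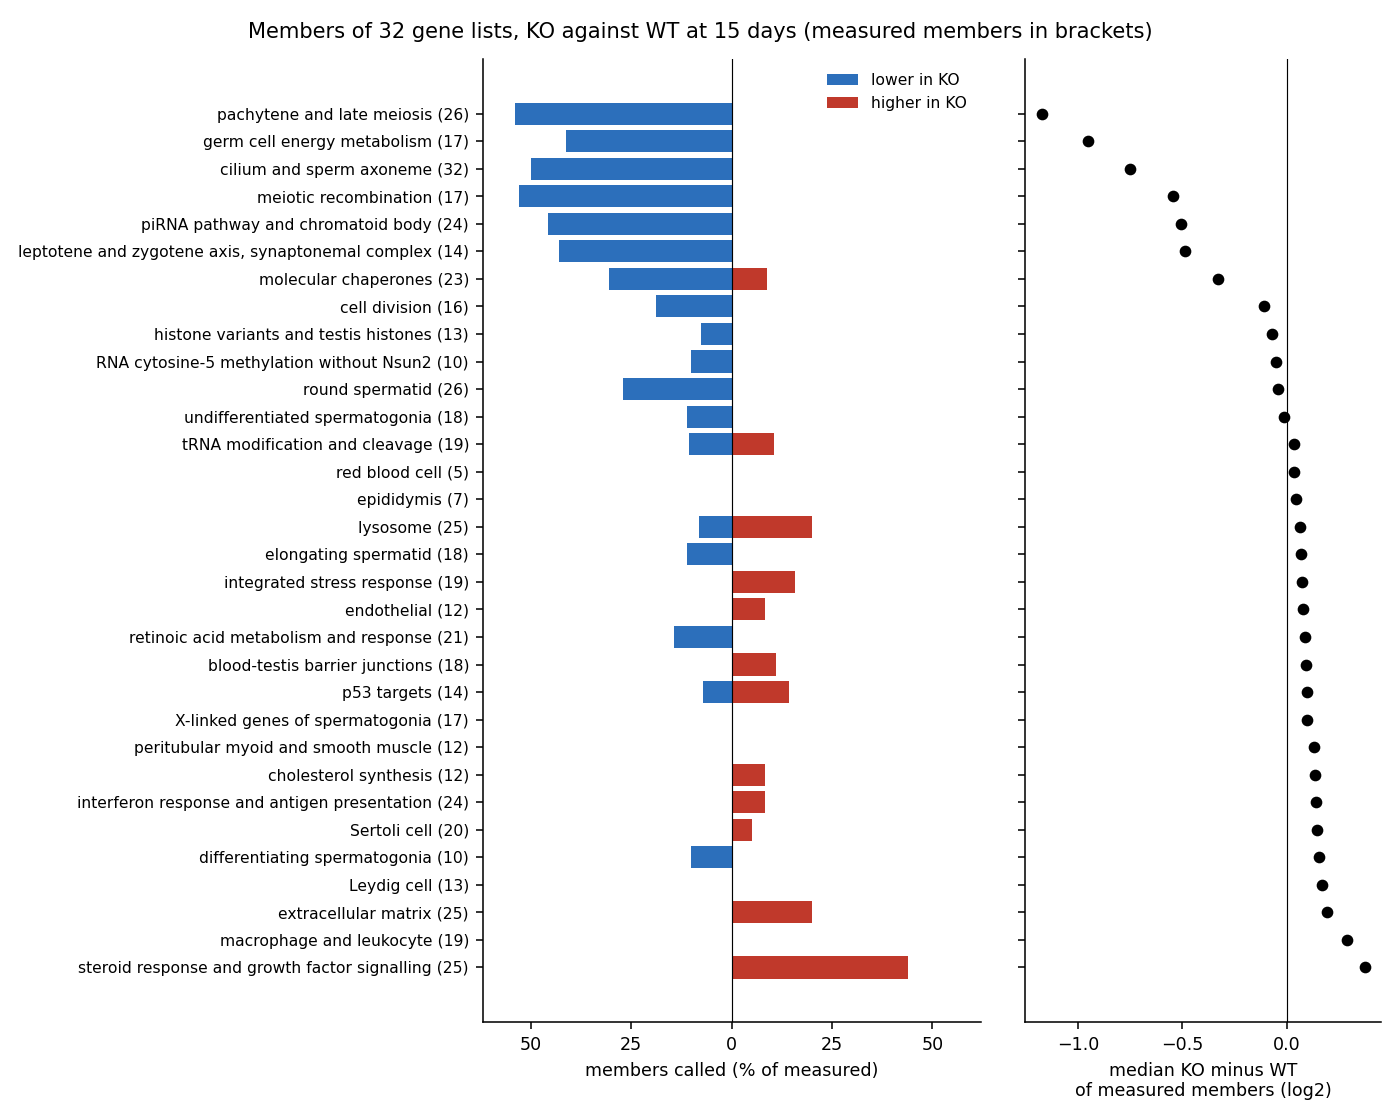
Left, the share of measured members of each of 32 gene lists (members measured in brackets) called lower, to the left, or higher, to the right, in KO testes at 15 days (percent). Right, the median difference of KO minus WT over the measured members (log2). The pachytene list has the lowest median, -1.18, and the steroid response and growth factor list the highest, 0.38.

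Genes of stress, cell death and immunity were called at shares on both sides of the 10.6% of all genes. Of 14 p53 targets 2 were higher and 1 lower. Bbc3, the death activator PUMA, lay between 7.70 and 8.13 (median 7.86) in KO testes and between 6.72 and 7.31 (median 7.07) in WT testes, a difference of 0.84 (SE 0.11, adjusted p = 0.00102). The death receptor Fas was higher (0.86) and Mdm2, the inhibitor of p53, lower (-0.65). Of 19 genes of the integrated stress response Vldlr (0.99), Atf3 and Phgdh (0.62) were higher and 0 lower; Atf3 was above background on 3 of 6 KO and 0 of 6 WT arrays (at least 1.03-fold). Of 24 interferon and antigen genes Erap1 and Ifitm2 (0.59) were higher, of 18 junction genes Cxadr (1.07) and F11r (0.46), and of 12 cholesterol genes Nsdhl (0.76). Of these 14, 19, 24, 18 and 12 genes 1, 0, 0, 1 and 0 were higher without the 5 arrays with epididymis transcripts. Among the smallest p-values were also Anp32a, an acidic nuclear protein (0.64, SE 0.08, adjusted p = 0.000915), and S1pr2, a sphingosine phosphate receptor (0.71, SE 0.09, adjusted p = 0.000915), both higher with little spread, and Rnls (-1.65, SE 0.14, adjusted p = 0.000132), Mag (-2.21, SE 0.24, adjusted p = 0.000591) and Ccdc114, a dynein docking protein (-1.41, SE 0.15, adjusted p = 0.000591), all lower. Fas, Mdm2, Vldlr, Atf3, Phgdh, Ifitm2, F11r and Nsdhl were not past the threshold without the 5 arrays with epididymis transcripts (adjusted p = 0.084 to 0.292). Bbc3, Anp32a and S1pr2 were not past it in 1 fit to all 24 arrays (adjusted p = 0.0657 to 0.13). Nor were F11r, Ifitm2 and Atf3 in that fit (adjusted p = 0.205 to 0.55).

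A larger share of X genes than of autosomal genes was called higher in KO testes. When all chromosomes were tallied, 101 of 710 X genes were higher (14.2%) and 2 lower (0.282%), against 806 of 18251 autosomal genes higher (4.42%) and 1099 lower (6.02%). Among chromosomes 1 to 19 the share higher ran from 2.07% (chromosome 7) to 7.30% (chromosome 13) and the share lower from 3.82% to 8.07%. Of the 394 X genes above background on 3 or more arrays 82.2% had a positive difference, and of such autosomal genes 50.7%. Their median difference from the WT mean was 0.19 to 0.32 on the 6 KO arrays and -0.16 to 0.13 on the 6 WT arrays, without overlap. Within the 4 slides the median KO minus WT difference of these X genes was 0.42, 0.33, 0.28 and 0.20, and that of autosomal genes 0.02, -0.09, 0.02 and -0.0042. Over the 101 higher genes the median difference was 0.55, the range 0.28 to 1.14, and 92 were above background on all 12 arrays. The 6 above 1, taken after their values were seen, were Fam199x (1.14), Mcts1, a factor of translation re-initiation (1.08), Sh3bgrl (1.05), Itm2a (1.04), the gene model C430049B03Rik (1.03) and Maob, a monoamine oxidase (1.02). Mcts1 lay between 10.49 and 11.31 (median 10.98) in KO testes and between 9.27 and 10.22 (median 9.89) in WT testes. Atrx, a chromatin remodeller, rose by 0.94. The 2 lower genes were Fmr1nb (-0.59) and Syn1 (-0.66). A hand-made list of 17 X genes known from spermatogonia had 0 called in either direction (median 0.10), with the largest differences in Magea5 (0.97) and Mageb4 (0.35). The count of 101 was 62 without KO array B or without KO array C, 52 without KO array B and WT array A, and 16 without the 5 arrays with epididymis transcripts; the X chromosome was noticed after the counts were seen, and no test was made of it. The pachytene list, whose cells silence the X chromosome, was lower on the same KO arrays, and its part in this shift was not tested. Fam199x, Mcts1, Sh3bgrl, Itm2a, Maob, Fmr1nb and Syn1 were not past the threshold without the 5 arrays with epididymis transcripts (adjusted p = 0.0531 to 0.257). C430049B03Rik was not past it in 1 fit to all 24 arrays (adjusted p = 0.17).

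**Figure D4:**
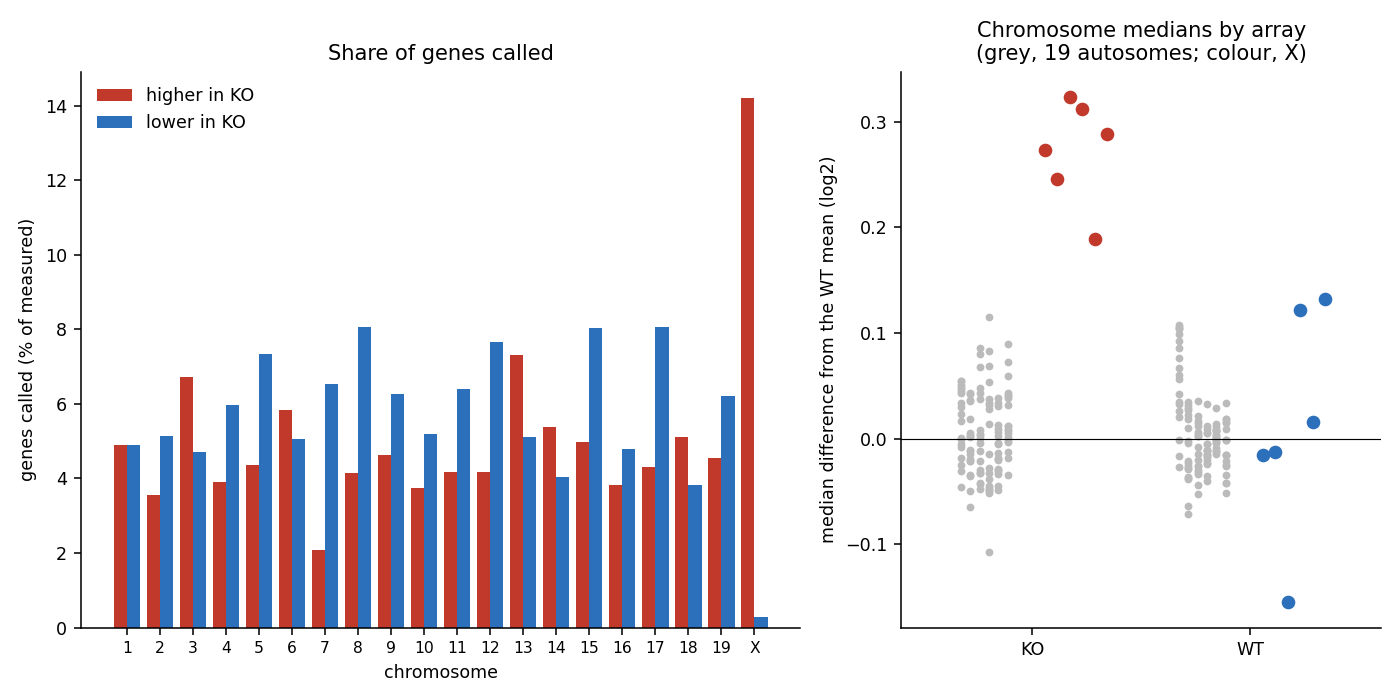
Left, share of measured genes called higher or lower in KO testes at 15 days (percent) by chromosome. Right, median difference from the WT mean (log2) over the genes above background on 3 or more arrays, 1 point an array, for each autosome (grey) and for X (colour); the X medians of KO arrays, 0.19 to 0.32, lie above those of WT arrays, -0.16 to 0.13.

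The arrays at 49 days, which share no sample with those at 15 days, gave the same genes a second reading. At that age 26.6% of all genes were higher and 15.1% lower in KO testes. Of the 912 genes higher at 15 days 644 were higher (70.6%) and 54 lower (5.92%) at 49 days, and of the 1102 lower at 15 days 350 were lower (31.8%), 142 higher (12.9%) and 610 not called. Without KO array D of 49 days, 441 were lower at both ages. Of the 101 X genes higher at 15 days 84 were higher again and 0 lower, where 40.7% of all X genes were higher and 8.03% lower. Ctsl (3.09, SE 0.35, adjusted p = 0.000241) and Tnfrsf12a (3.06, SE 0.51, adjusted p = 0.0015) were higher again, and Fastkd3 (-2.46, SE 0.18, adjusted p = 3.27e-05) and Zfp367 (-2.67, SE 0.20, adjusted p = 3.65e-05) lower again. Each was read by the same probe at both ages. For Zfp367 the second reading is thus of that probe alone, since both its other probes were not called at 15 days (-0.16 and 0.17). The fall of Piwil1 was shallower at 49 days, at -0.62 (SE 0.47, adjusted p = 0.375), and not called. Its difference between ages, in a fit of all 24 arrays, was -3.34 (adjusted p = 0.000897), and it was picked for a large fall at 15 days, which favours such a gap. A gap between ages passed the threshold for 32.4% of all genes, 33.0% of the lower and 43.0% of the higher genes of 15 days. For Ldhc and Fabp9 the ages cannot be compared in size. At 49 days no more than 2 probes were brighter than Ldhc and no more than 14 brighter than Fabp9 on any WT array, at the top of the intensity scale. In all 196 genes were called at both ages with opposite signs. Tbata, a gene expressed in thymus, brain and testis, lay between 7.89 and 8.46 (median 8.26) in KO testes and between 6.90 and 7.46 (median 7.05) in WT testes at 15 days, a difference of 1.10 (SE 0.13, adjusted p = 0.00066), and was lower at 49 days (-1.62, SE 0.39, adjusted p = 0.00752). Cxxc5 (-2.19, SE 0.51, adjusted p = 0.00686), Cd59b, an inhibitor of complement (-1.13, SE 0.24, adjusted p = 0.00464), Snai2, a transcriptional repressor (-0.84, SE 0.23, adjusted p = 0.015), and Yme1l1, a mitochondrial protease (-2.33, SE 0.77, adjusted p = 0.0367), were also higher at 15 and lower at 49 days, and Elavl3, an RNA-binding protein, was lower at 15 (-1.04) and higher at 49 days (1.23, SE 0.41, adjusted p = 0.0389). Cd59b, Snai2, Yme1l1 and Elavl3 were not past the threshold without the 5 arrays with epididymis transcripts (adjusted p = 0.0576 to 0.224). Tbata was not past it in 1 fit to all 24 arrays (adjusted p = 0.0507). Nor were Elavl3 and Yme1l1 in that fit (adjusted p = 0.123 and 0.54).

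**Figure D5:**
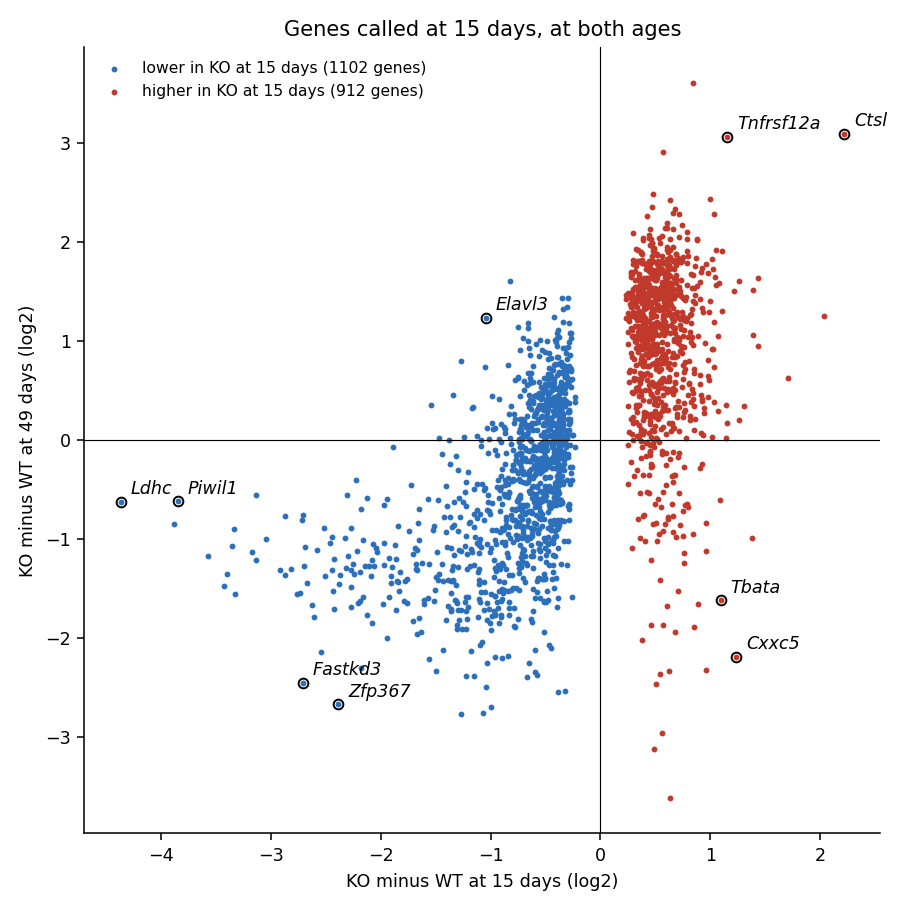
Difference between KO and WT testes (log2) at 15 days (horizontal axis) and at 49 days (vertical axis) for the 2014 genes called at 15 days. Most genes higher at 15 days lie above 0 at 49 days (644 of 912 called higher), while Piwil1, among the far left points, lies at -0.62 at 49 days.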

How the data were processed

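RNA of testis was labelled as biotin cRNA and read on Illumina beadchips, per the labels' protocols. The authors deposited non-normalized bead intensities for 45278 probes and 956 control rows, with empty detection columns, and a table of log2 values; a check found that the deposited log2 values equal log2 quantile-normalized intensities to within 3.62e-05. The scanner software and bead summary were not stated in what was used here, and precision is limited by the number of arrays. Background was corrected by normexp on the 946 dim control rows (median under 400), with an offset of 16, followed by log2 and quantile normalization over the 12 arrays of 15 days, or over those of 49 days.

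Differences are KO minus WT from limma 3.58.1 (lmFit and eBayes, R 4.3.3, 10 residual degrees of freedom), two-sided, with Benjamini-Hochberg adjustment over all 45278 probes, after a run on simulated data. 34885 probes name 1 gene, 18 several and 10375 are unnamed here; 34807 were named through their gene identifier (GRCm38.p6), giving 19057 symbols, each read by its brightest probe. A fold bound sets the bright group's mean against the lowest signal above background. The genes named are Nsun2, the 15 largest changes without overlap and the 5 smallest p-values in each direction, up to 3 passing members of each list and direction (or the 2 largest values where none passed), the 10 largest KO SDs, and 6 genes each that differ or oppose between ages. Other names were added after their values were seen, as were the symbol families and chromosomes. The members and the 32 gene lists were chosen with earlier results of these data known. Alternatives covered background, normalization, dim probes, slide, replicate letter, variance model, array weights and arrays left out.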

Additional observations from a re-analysis of the deposited data

Results flagged for a closer look

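In 36 of 384 groups of 6 arrays examined (9.38%), 1 array lay apart from the other 5, by a gap over 0.625 of the group's range. Chance flags about 1 in 20 independent groups, but these share arrays and hold genes chosen for a large spread or change, so that rate is no yardstick here. The values are normalized log2 intensities, and the range after each is that of the other 5 arrays of the group. KO array D had Dnaic1 at 5.31 against 6.24 to 6.77, Elavl3 at 7.38 against 8.57 to 8.86, Fmr1nb at 11.07 against 11.75 to 12.14, Gpx8 at 12.41 against 11.53 to 11.68 and Islr at 8.90 against 8.22 to 8.43. It also had Msh4 at 6.16 against 7.64 to 8.10, Piwil1 at 7.03 against 8.30 to 8.70, Rfx2 at 8.63 against 9.29 to 9.62, Spo11 at 8.67 against 10.19 to 10.59 and Syce3 at 11.37 against 12.21 to 12.57. KO array B had Gk2 at 6.04 against 5.01 to 5.39 and Prm1 at 12.39 against 5.45 to 7.12. KO array E had C430049B03Rik at 10.88 against 11.46 to 11.71, Defb11 at 12.69 against 5.49 to 7.81 and Defb2 at 12.90 against 4.88 to 7.76. It also had Lcn5 at 7.98 against 4.89 to 5.66 and Serpina1f at 12.42 against 4.92 to 7.29. KO array F had Agtr1a at 7.10 against 7.73 to 8.004, Atf3 at 7.09 against 6.06 to 6.39, Fcer1g at 5.13 against 9.59 to 10.54 and H2bc4 at 11.002 against 11.85 to 12.12. WT array A had Erap1 at 7.16 against 4.88 to 5.05, Igf1 at 8.23 against 9.06 to 9.52, Maob at 6.67 against 7.68 to 8.04 and Prm1 at 10.17 against 5.56 to 6.57. WT array B had Hspa1a at 8.31 against 8.70 to 8.84. WT array E had Inhba at 8.36 against 7.57 to 7.83 and Magea5 at 5.71 against 9.54 to 10.22. Over whole lists the value is the median deviation of the members from their WT mean (log2). KO array D had the synaptonemal list at -0.96 against -0.49 to -0.25, the recombination list at -1.12 against -0.56 to -0.43, the piRNA list at -1.004 against -0.60 to -0.42, the RNA methylation list at -0.28 against -0.08 to 0.03 and the cell division list at -0.33 against -0.13 to -0.02. KO array B had the elongating spermatid list at 0.51 against -0.23 to -0.03. WT array A had the undifferentiated spermatogonia list at 0.22 against -0.10 to 0.01 and the elongating spermatid list at 0.43 against -0.23 to -0.07. In all, 15 of the 36 fell on KO array D and 6 on WT array A.

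For 12 genes the KO minus WT difference at 15 days was not the same as at 49 days, by the interaction term of a limma fit to all 24 arrays. They were taken for large differences at 15 days or for opposite calls at the 2 ages, which favours a gap. Over all genes such a gap passed the threshold for 6173 of 19057 (32.4%). For the gap the 24 arrays were normalized together, and for each difference the 12 of its age, so the gap need not equal the 2 differences printed. At 49 days Ldhc and Fabp9 were at the top of the intensity scale on WT arrays, with no more than 2 and 14 probes brighter, so their differences there, and their gaps, cannot be taken as sizes. Cd59b differed by 0.97 at 15 days and -1.13 at 49 days, a gap of 2.07 (adjusted p = 0.000148). Clec2m differed by -3.57 at 15 days and -1.18 at 49 days, a gap of -2.34 (adjusted p = 0.0338). Cxxc5 differed by 1.24 at 15 days and -2.19 at 49 days, a gap of 3.44 (adjusted p = 0.000192). Elavl3 differed by -1.04 at 15 days and 1.23 at 49 days, a gap of -2.27 (adjusted p = 0.0018). Fabp9 differed by -3.88 at 15 days and -0.85 at 49 days, a gap of -3.12 (adjusted p = 0.00664). Ldhc differed by -4.37 at 15 days and -0.63 at 49 days, a gap of -3.84 (adjusted p = 0.00309). Lypd10 differed by -3.33 at 15 days and -0.90 at 49 days, a gap of -2.51 (adjusted p = 0.0253). Mdh1b differed by -3.35 at 15 days and -1.07 at 49 days, a gap of -2.31 (adjusted p = 0.0286). Piwil1 differed by -3.85 at 15 days and -0.62 at 49 days, a gap of -3.34 (adjusted p = 0.000897). Snai2 differed by 0.96 at 15 days and -0.84 at 49 days, a gap of 1.80 (adjusted p = 0.000278). Tbata differed by 1.10 at 15 days and -1.62 at 49 days, a gap of 2.70 (adjusted p = 0.000112). Yme1l1 differed by 0.96 at 15 days and -2.33 at 49 days, a gap of 3.30 (adjusted p = 0.00643).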

How the results depend on the processing

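The counts depended most on how many arrays entered the fit and on which. Without the 5 arrays that carry epididymis transcripts, a choice made after seeing the data, 655 probes were called (223 higher, 432 lower), 394 genes (140 higher, 254 lower) and 16 X genes higher. Without KO array B and WT array A 2068 probes (888 higher, 1180 lower), 1231 genes (537 higher, 694 lower) and 52 X genes higher were called. In 1 fit of 4 groups to all 24 arrays these were 999 probes (311 higher, 688 lower), 562 genes (141 higher, 421 lower) and 20 X genes higher. Fewer samples enter the first 2 fits; for the third the cause was not tested. With scale normalization 1193 probes and 690 genes were lower, and the cause was not tested. Leaving out 1 array at a time gave 2353 to 3426 probes (993 to 1565 higher, 1345 to 1861 lower), 1421 to 1999 genes (602 to 883 higher, 819 to 1133 lower), 62 to 107 X genes higher and 0 to 2 lower. Among these the count of higher genes was 602 without WT array C, that of higher probes 1008 without WT array C and 993 without KO array D, and that of X genes 62 without KO array B or C. Whether the letters A to F pair the samples was not settled. After group means were removed, 1 of 6 same-letter pairs correlated above 0.1 (A, at 0.16). Of 6 KO arrays 2 correlated best with the WT array of their own letter, and such correlations cannot exclude pairing. A replicate block gave 2879 probes, 719 genes higher and 962 lower. Slide as a fixed block gave 4045 probes. No gene called in the report was called in the opposite direction in any of 27 settings, and 77 of the 95 called genes chosen by the naming rule kept their call with each array left out in turn. Of these 95, 47 were past the threshold without the 5 arrays and 52 in the 24-array fit. A gene named as lost in 1 of these 2 settings can be lost in the other as well. Genes lower at both ages numbered 441 without KO49 array D and 377 with log2 quantile values at 49 days, and genes higher at both 651 and 609. Probes near background limit the size of a fall, since 121 of the 1102 lower genes were above background on 0 KO arrays.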
